A study of Mus musculus with 4 samples.

Results

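Gut regional and identity transcription factors are proteins that bind DNA and give each stretch of the intestine its own gene programme. The set described here was chosen by gene name, as the 9 genes Cdx1, Cdx2, Gata4, Gata5, Gata6, Hnf4a, Hnf4g, Isx and Osr2, among 31227 gene rows of a count table, and each of the 9 had 1 row. RNA sequencing measured them in colonic epithelial cells of mice with chemical colitis. The groups were 2 libraries from mice without epithelial Smad4 (Smad4 KO, replicates 1 and 2) and 2 libraries from wild-type mice (WT, replicates 1 and 3). All mice were 8 to 10 weeks old and drank 3.5% dextran sulfate sodium (DSS), a polymer of 36 to 50 kDa that injures the colonic lining, for 5 days. They then had plain water until they were killed on day 7, and the labels give the time as 5 days. The sources used here do not name the promoter or Cre line behind the deletion. They also do not say if each library stands for its own mouse, so a p-value covers only how far these 4 libraries scatter, and that scatter may be technical. No library without DSS was analysed here, so the values compare genotypes under DSS and do not show what DSS did.

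CDX1 and CDX2 are caudal-type homeobox factors that set and keep intestinal rather than gastric fate. GATA4, GATA5 and GATA6 are zinc finger factors. GATA4 is known for the proximal small intestine, where it holds down ileal genes, and GATA6 for epithelium along the whole intestine. HNF4A and HNF4G are paired nuclear receptors that drive enterocyte differentiation and lipid handling. ISX is an intestine-specific homeobox factor that represses genes of vitamin A and carotenoid uptake. OSR2 is an odd-skipped zinc finger factor, best known in mice from palate and joint development. SMAD4, the product of the gene targeted in the KO epithelium, is the shared partner that carries TGF-β and BMP signals into the nucleus.

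Levels are CPM, the count of a gene relative to the total count of its library, with totals scaled by TMM, a method that equalises the bulk of genes between libraries. A change is the log2 fold change of KO over WT with its standard error (SE) from an edgeR quasi-likelihood fit over all 15838 tested genes. The threshold is a Benjamini-Hochberg adjusted p of 0.05. The 9 genes were chosen with results of this same contrast known, so their values are given as a description, without p-values. The KO libraries held 61260099 and 67927291 counts and the WT libraries 56018009 and 42577920. Smad4 itself had 51.5 and 41.1 CPM in the KO libraries, against 152 and 180 CPM in the WT libraries. Smad4 thus fell by 1.84 on the log2 scale (SE 0.143, edgeR adjusted p = 0.00163), with both KO libraries below both WT libraries.

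All 9 factors passed the filter on low counts. Their smallest count in a library was 156 in KO and 16 in WT, both for Gata5. Of the 9, 4 were past the threshold as higher in KO (Osr2, Gata5, Isx and Cdx2), 1 as lower (Hnf4a) and 4 were not past it (Cdx1, Gata4, Gata6 and Hnf4g). Among all tested genes, 15.2% passed, with 8.83% higher and 6.40% lower in KO. The KO and WT libraries did not overlap for 7 of the 9, and 59.4% of all tested genes showed the same. The median log2 fold change of the 9 was 0.58, against 0.01 for all tested genes. Since the choice of members used this contrast, nothing is read from these counts.

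**Figure D1:**
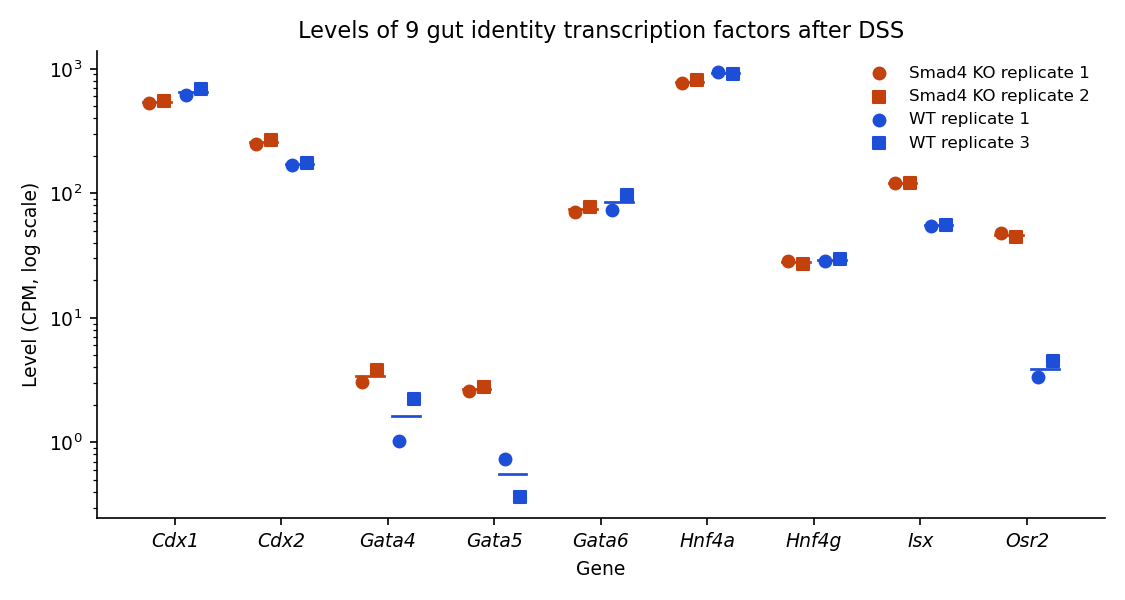
Level in CPM on a log axis of each of the 9 factors in the 4 libraries, with Smad4 KO (orange) left of WT (blue) and a bar at the mean of each genotype. Osr2 stands at 47.7 and 44.5 CPM in KO against 3.33 and 4.50 CPM in WT, while Gata6 and Hnf4g overlap between the genotypes.

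Sequence upstream of the annotated start was at hand in RefSeq (GRCm38.p6) for 4 of the 9 genes, in 5 windows. The 250 bases before the start are printed 5′ to 3′ for Cdx2, Gata5 and Isx, since these are the factors with a window that were higher in KO. They come from chr5:147307250-147307499 (minus strand), chr2:180334680-180334929 (minus strand) and chr8:74872924-74873173 (plus strand). Capitals mark matches to any of the motifs searched.
Cdx2: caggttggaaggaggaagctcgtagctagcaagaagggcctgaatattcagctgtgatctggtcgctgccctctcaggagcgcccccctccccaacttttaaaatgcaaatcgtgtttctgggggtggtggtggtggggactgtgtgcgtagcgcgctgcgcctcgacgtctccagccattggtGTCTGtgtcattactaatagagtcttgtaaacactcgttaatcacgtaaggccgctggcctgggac
Gata5: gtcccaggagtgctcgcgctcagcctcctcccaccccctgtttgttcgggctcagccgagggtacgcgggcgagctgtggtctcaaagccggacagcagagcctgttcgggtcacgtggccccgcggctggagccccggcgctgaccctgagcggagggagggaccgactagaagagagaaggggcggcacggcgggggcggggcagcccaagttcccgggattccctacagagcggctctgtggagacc
Isx: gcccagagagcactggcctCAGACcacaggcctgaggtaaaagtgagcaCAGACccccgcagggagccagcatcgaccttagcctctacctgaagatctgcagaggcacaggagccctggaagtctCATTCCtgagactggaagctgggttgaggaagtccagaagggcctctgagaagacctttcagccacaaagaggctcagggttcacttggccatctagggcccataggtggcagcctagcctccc
Each window was searched on both strands for 6 motifs: the SMAD palindrome GTCTAGAC, the short SMAD motif CAGAC, GATA as AGATAA, CDX as TTTATNG, HNF4 as CAAAGTCCA and TEAD as GGAATG. The palindrome does not contain CAGAC on either strand. Isx held 2 copies of CAGAC, starting 231 and 201 bases before the start site, and 1 reverse match to GGAATG, starting 124 bases before it. Cdx2 held 1 reverse match to CAGAC, 66 bases before its start, and Gata5 held none of the 6. Among 32851 RefSeq windows of this length, 42.2% held CAGAC and 12.6% held GGAATG. The palindrome was in 0.167% of all windows, AGATAA in 9.99%, TTTATNG in 9.81% and CAAAGTCCA in 0.384%. The pair of Hnf4a windows, for its upstream and its downstream start, held only 1 of these motifs, AGATAA, 52 bases before the upstream start. In base composition the Gata5 window had 70.0% GC and 22 CpG dinucleotides, Cdx2 had 55.2% and 13, and Isx had 58.8% and 2. Over all windows the median was 52.4% GC and 6 CpG.

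Of the caudal factors, Cdx2 was higher and Cdx1 lower in KO, while their summed level overlapped between the genotypes. In bulk RNA, a lower level can mean fewer cells of a type or less RNA per cell, and these cannot be told apart. Cdx2 (ENSMUSG00000029646, chromosome 5, 147300805 to 147307270, minus strand) had 249 and 269 CPM in the KO libraries, against 169.7 and 176 CPM in the WT libraries. Both KO libraries were above both WT libraries, with a log2 fold change of 0.58 (SE 0.0675). Cdx2 was no longer past the threshold without KO replicate 2, where the log2 fold change was 0.53. Cdx1 (ENSMUSG00000024619, chromosome 18, 61018862 to 61036199, minus strand) had 534 and 554 CPM in KO, against 616 and 691 CPM in WT. Its KO libraries were both below its WT libraries (log2 fold change -0.26, SE 0.0708), without passing the threshold. Without WT replicate 1 Cdx1 was past it, at -0.36. With all libraries in, Cdx1 was also past it with library totals (-0.32), without a filter on low counts (-0.26) and by DESeq2 (-0.27). Under the other scalings, filters and tests it was not. Per kilobase of exon, Cdx2 made up 26.5% and 27.3% of the summed Cdx1 and Cdx2 level in the KO libraries, against 17.6% and 16.5% in the WT libraries. The summed level was 425 ± 14.3 CPM per kb in KO and 450 ± 32.4 CPM per kb in WT (SD, n = 2 each), with overlapping libraries.

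**Figure D2:**
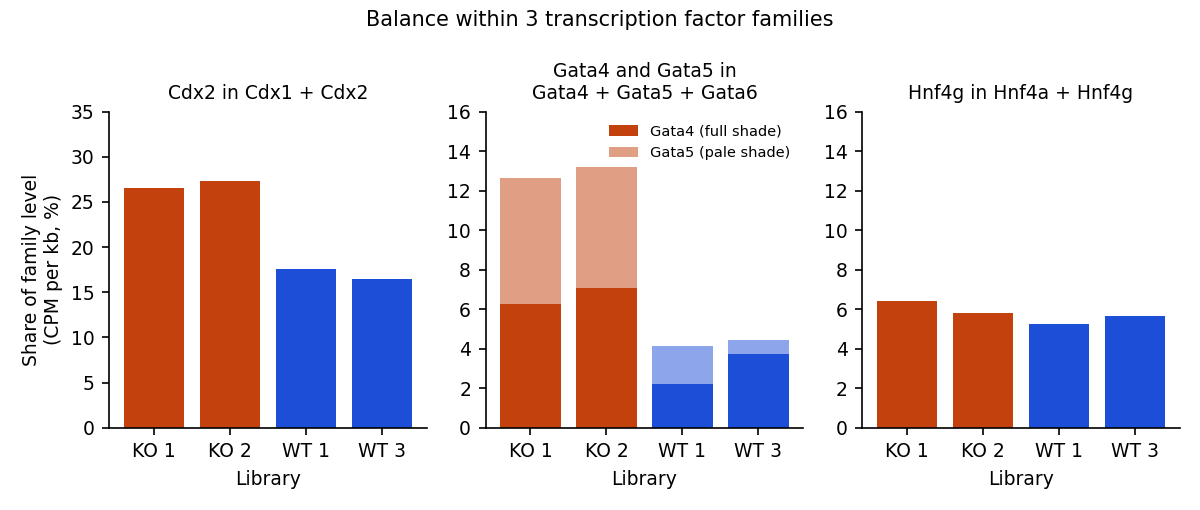
Share of a family's summed level, in CPM per kb of exon, taken by Cdx2, by Gata4 and Gata5, and by Hnf4g in each library, with Smad4 KO left of WT. Cdx2 takes 26.5% and 27.3% in KO against 17.6% and 16.5% in WT, and Gata6, not drawn, takes the rest of the middle panel.

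In the GATA family the abundant member, Gata6, overlapped between the genotypes and the scarce members were higher in KO. Gata6 (ENSMUSG00000005836, chromosome 18, 11052064 to 11085635, plus strand) had 70.5 and 77.8 CPM in KO, against 73.2 and 96.4 CPM in WT. Its libraries overlapped (log2 fold change -0.19, SE 0.144), and without WT replicate 3 the value was 0.02. Gata5 (ENSMUSG00000015627, chromosome 2, 180325133 to 180334699, minus strand) had 2.60 and 2.77 CPM in KO, against 0.741 and 0.367 CPM in WT. These levels came from 156 and 185 counts in KO and 42 and 16 counts in WT. The genotypes did not overlap, with a log2 fold change of 2.26 (SE 0.440). Gata5 dropped under the threshold without either KO library, at 2.31 without KO replicate 1 and 2.21 without KO replicate 2. Its log2 fold change was 2.85 without WT replicate 1 and 1.86 without WT replicate 3, past the threshold both times. Gata4 (ENSMUSG00000021944, chromosome 14, 63198922 to 63271692, minus strand) had 3.03 and 3.81 CPM in KO, against 1.02 and 2.25 CPM in WT. Its KO libraries were the higher ones (log2 fold change 1.07, SE 0.434), but the WT libraries stood far apart. The log2 fold change was 1.74 without WT replicate 3, past the threshold, and 0.59 without WT replicate 1. Per kilobase of exon, Gata6 held 87.4% and 86.8% of the family's level in KO, against 95.8% and 95.6% in WT. Gata5 held 6.38% and 6.14% in KO, against 1.93% and 0.723% in WT. The sum of the 3 genes was 13.1 ± 0.970 CPM per kb in KO and 13.6 ± 2.66 CPM per kb in WT (SD, n = 2 each).

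Gata5 shares 258 exon bases with the antisense gene Gata5os, whose own row is at 0 in all 4 libraries. Gata6 shares 93 exon bases with the antisense gene 1010001N08Rik, which has no row in the count table. No source used here says whether strand was kept, so reads of a gene and its antisense partner cannot be told apart.

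At the RNA level Hnf4a was by far the more abundant of the pair. Hnf4a (ENSMUSG00000017950, chromosome 2, 163506808 to 163572910, plus strand) had 766 and 812 CPM in KO, against 942 and 910 CPM in WT. The genotypes did not overlap, though the difference was small (log2 fold change -0.23, SE 0.0529). Hnf4a was no longer past the threshold without WT replicate 1 (-0.22), KO replicate 1 (-0.19) or KO replicate 2 (-0.27), nor with upper-quartile scaling (-0.23). Hnf4g (ENSMUSG00000017688, chromosome 3, 3508030 to 3658052, plus strand) had 28.6 and 27.3 CPM in KO, against 28.4 and 29.8 CPM in WT. These libraries overlapped (log2 fold change -0.06, SE 0.0966). Hnf4g made up 6.42% and 5.80% of the summed Hnf4a and Hnf4g level per kilobase in KO, against 5.24% and 5.67% in WT. The sum of both genes was 174 ± 6.36 CPM per kb in KO and 203 ± 4.33 CPM per kb in WT (SD, n = 2 each).

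Isx (ENSMUSG00000031621, chromosome 8, 74873173 to 74893506, plus strand) was the factor with the tightest replicates. It had 120.5 and 121 CPM in the KO libraries, against 54.6 and 55.9 CPM in the WT libraries. The KO level was 2.19-fold higher (log2 fold change 1.13, SE 0.0655), and it stayed past the threshold without each library in turn, at 1.10 to 1.15. The 2 listed genes that ISX is known to repress did not pass, which does not show that they were equal. Bco1, which cleaves β-carotene, had 2.01 and 1.53 CPM in KO, against 2.31 and 2.45 CPM in WT (edgeR adjusted p = 0.411). Scarb1, a lipid and carotenoid uptake receptor, had 27.3 and 25.98 CPM in KO, against 28.0 and 28.5 CPM in WT (edgeR adjusted p = 0.630).

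Osr2 (ENSMUSG00000022330, chromosome 15, 35296098 to 35303305, plus strand) showed the widest gap of the 9. It had 47.7 and 44.5 CPM in KO, against 3.33 and 4.50 CPM in WT, from 2869 and 2972 counts in KO and 189 and 196 counts in WT. The KO level was 11.8-fold higher (log2 fold change 3.56, SE 0.176). Without each library in turn it stayed past the threshold, at 3.35 to 3.79. Its relative Osr1 had too few counts to be tested, with none in KO or in WT replicate 1 and 9 in WT replicate 3.

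Ranked per kilobase of exon, the same 4 factors led in both genotypes. In KO these were Cdx1 (311 CPM per kb), Hnf4a (163), Cdx2 (115) and Isx (67.4 CPM per kb). In WT they were Cdx1 (373 CPM per kb), Hnf4a (192), Cdx2 (76.5) and Isx (30.8 CPM per kb). Osr2 took the fifth place in KO, at 12.7 ± 0.620 CPM per kb, and the seventh in WT, at 1.08 ± 0.227 CPM per kb (SD, n = 2 each). Gata6 and Hnf4g, at 11.4 and 10.6 CPM per kb in KO and 13.0 and 11.1 CPM per kb in WT, overlapped each other in both genotypes. Gata4 and Gata5 were last, at 0.875 and 0.819 CPM per kb in KO, where they overlapped, and 0.419 and 0.169 CPM per kb in WT, where they did not.

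**Figure D3:**
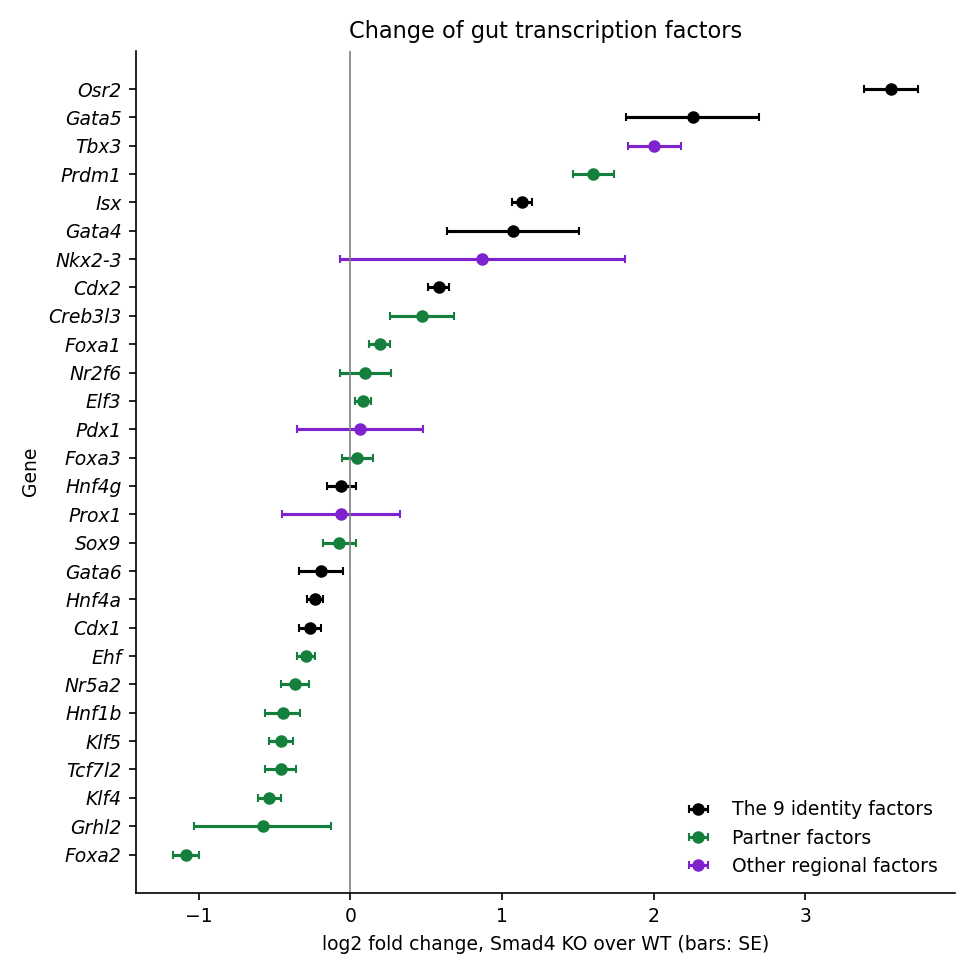
log2 fold change of Smad4 KO over WT with SE bars for the 9 factors (black) and for partner factors (green) and other regional factors (purple). Meis1 and Meis2, with an SE of 1.59 and 1.61, are left out. Osr2 lies highest at 3.56 and Foxa2 lowest at -1.08.

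Other transcription factors of gut epithelium were read from a list of 16 partners, all tested. Of these, 1 rose, 5 fell and 10 did not pass, with a median log2 fold change of -0.18 against 0.01 for all tested genes. This list and those below were drawn up with earlier results of these data known, so their counts and p-values are a description. Among all tested genes, 15.2% passed, with 8.83% higher and 6.40% lower in KO. FOXA2 opens chromatin at endodermal genes and helps form secretory cells. Foxa2 fell to 25.5 and 25.9 CPM in KO, against 54.2 and 54.6 CPM in WT (log2 fold change -1.08, SE 0.0846, edgeR adjusted p = 0.00167). PRDM1 represses the adult programme in the immature mouse intestine. Prdm1 rose to 15.9 and 17.2 CPM in KO, against 5.22 and 5.69 CPM in WT (log2 fold change 1.60, SE 0.135, edgeR adjusted p = 0.00207). Klf4, a factor of goblet and surface cells, fell by 0.53 on the log2 scale, and Klf5, a factor of crypt cells, fell by 0.45 (edgeR adjusted p = 0.0100 and 0.0191). With KO replicate 1 left out neither passed (edgeR adjusted p = 0.0784 for Klf4 and 0.118 for Klf5), nor with KO replicate 2 left out (0.0572 and 0.110). The other fallen partners, named after their values were seen, were Ehf and Tcf7l2. Ehf lost its call without either KO library, and Tcf7l2 without either KO library or WT replicate 3 (edgeR adjusted p up to 0.237).

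A second list held 14 other factors known for a position along the gut tube, of which 7 were tested. Of these, 1 rose, none fell and 6 did not pass, with a median log2 fold change of 0.07. The share of all tested genes that passed was 15.2%, so nothing is read from this count. Tbx3, a T-box factor, rose to 10.6 and 12.2 CPM in KO, against 2.91 and 2.78 CPM in WT (log2 fold change 2.01, SE 0.172, edgeR adjusted p = 0.00217). Nkx2-3 and Meis2 stayed under 0.4 CPM in all 4 libraries. The foregut factor Sox2, the posterior embryonic factor Cdx4 and the stomach factor Barx1 were listed at 0 in all 4.

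A list of genes known to be driven by CDX factors held 15, of which 14 were tested. Of these, 6 rose, none fell and 8 did not pass, with a median log2 fold change of 0.51 against 0.01 for all tested genes. Since the list was drawn up with earlier results of these data known, these counts are a description. Of all tested genes, 8.83% rose. The brush border protease gene Mep1a rose to 316 and 315 CPM in KO, against 182 and 176 CPM in WT (edgeR adjusted p = 0.00113). Cdh17, an adhesion protein of intestinal epithelium, rose to 1352 and 1340 CPM in KO, against 887 and 874 CPM in WT (log2 fold change 0.61, SE 0.0424, edgeR adjusted p = 0.00113). Carbonic anhydrase Car1 rose by 1.21 and the mucin Muc2 by 0.64 on the log2 scale (edgeR adjusted p = 0.000515 for both). The other risen genes were Krt20 and Heph, named after their values were seen. These 6 calls held without each library in turn. Lct, the lactase gene of the small intestine, was listed at 0 in all 4 libraries. Among genes that did not pass was Cldn2, whose row had 232 and 0.0150 CPM in KO, against 173 and 0.0229 CPM in WT, so its value is not read.

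**Figure D4:**
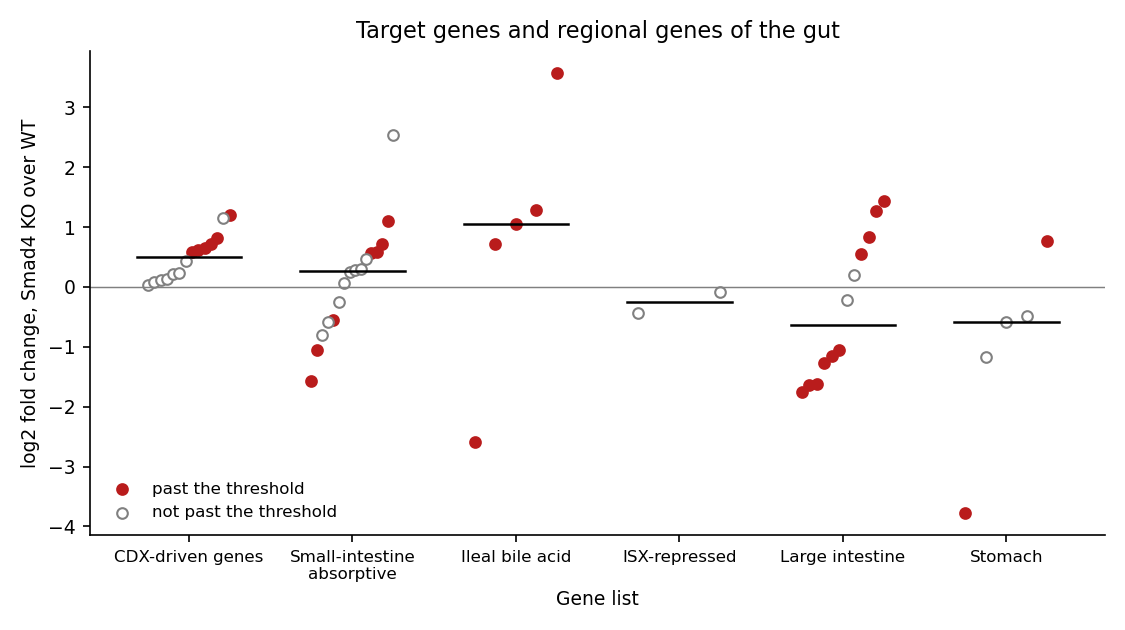
log2 fold change of Smad4 KO over WT for each tested gene of 6 lists, with filled points past the threshold, open points not past it and a bar at the median. The CDX-driven list has 6 genes past it, all above 0, while the large intestine list has 4 above and 6 below 0.

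Absorptive genes of the small intestine, many of them bound by HNF4 or GATA4, changed in both directions. Of 20 listed, 16 were tested, and 4 rose, 3 fell and 9 did not pass, with a median log2 fold change of 0.27. Beside this, 8.83% of all tested genes rose and 6.40% fell. The protease gene Mep1b rose to 277 and 278 CPM in KO, against 134 and 125 CPM in WT (log2 fold change 1.10, SE 0.0649, edgeR adjusted p = 0.000717). Apob, the structural protein of chylomicrons, rose by 0.58 on the log2 scale (edgeR adjusted p = 0.00307). The peptide transporter Slc15a1 fell to 50.0 and 52.3 CPM in KO, against 104.5 and 108 CPM in WT (log2 fold change -1.05, SE 0.0699, edgeR adjusted p = 0.000986). The glucose transporter Slc5a1 fell by 0.56 on the log2 scale (edgeR adjusted p = 0.00454), a call lost without KO replicate 1 (edgeR adjusted p = 0.0502). With KO replicate 1 left out, 3 genes of the list passed, and 5 with KO replicate 2 left out. Apoa4 and Apoc3, apolipoprotein genes of the small intestine, were listed at 0 in all 4 libraries.

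Bile acid genes of the ileum, which GATA4 holds down in the jejunum, were all past the threshold where tested. Of 6 listed, 5 were tested, and 4 rose and 1 fell, with a median log2 fold change of 1.05, while 15.2% of all tested genes passed. Fgf15, named after its values were seen, had too few counts to be tested, with 5 in KO replicate 1 and none elsewhere. The bile acid uptake transporter Slc10a2 rose to 49.9 and 47.8 CPM in KO, against 4.60 and 3.56 CPM in WT. The KO level was 11.9 times the WT level (edgeR adjusted p = 0.000347), with a log2 fold change of 3.58 and an SE of 0.159. The bile acid receptor gene Nr1h4 rose to 117 and 112 CPM in KO, against 68.6 and 71.4 CPM in WT (edgeR adjusted p = 0.00312). Slc51a and Slc51b, the subunits of the basolateral export transporter, rose by 1.29 and 1.05 on the log2 scale (edgeR adjusted p = 0.0118 and 0.00699). The fallen gene, named after its values were seen, was Fabp6, the ileal bile acid binding protein. It had 0.898 and 0.540 CPM in KO, against 5.27 and 3.35 CPM in WT (log2 fold change -2.59, SE 0.409, edgeR adjusted p = 0.0148). Without KO replicate 2, Slc51a and Fabp6 lost their calls (edgeR adjusted p = 0.0660 and 0.0693).

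Genes characteristic of the large intestine split as well. Of 12, all tested, 4 rose, 6 fell and 2 did not pass, with a median log2 fold change of -0.63. For this list and the stomach list below, the shares of all tested genes were 8.83% risen and 6.40% fallen. Atp12a, the colonic proton pump, fell to 204 and 202 CPM in KO, against 456 and 448 CPM in WT (log2 fold change -1.15, SE 0.0530, edgeR adjusted p = 0.000391). On the log2 scale Aqp8, a water channel, fell by 1.75 and Slc5a8, a fatty acid transporter, fell by 1.28, while the cytochrome P450 Cyp2c55 rose by 1.26 (edgeR adjusted p = 0.000298 to 0.000312). Of 14 stomach genes, 5 were tested, 7 were listed at 0 in all libraries, and 1 rose, 1 fell and 3 did not pass, with a median of -0.59. The fallen gene was the protease Ctse, at 3.06 and 2.43 CPM in KO, against 39.5 and 35.6 CPM in WT (log2 fold change -3.77, SE 0.163, edgeR adjusted p = 0.000315). Vsig1, a junction protein, rose by 0.76 on the log2 scale (edgeR adjusted p = 0.0239). It did not pass with KO replicate 1 or KO replicate 2 left out (edgeR adjusted p = 0.119 and 0.121).

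For each factor past the threshold, the nearest genes were sought among about 10294 others with a mean of at least 5 CPM, by the Euclidean distance of centred log2 CPM over the 4 libraries. With 4 libraries in 2 groups, a gene with a similar genotype difference lies near whatever it does. Nearest to Isx were Hk2 (distance 0.0202) and Egln3 (0.0267), and nearest to Cdx2 were Fam83f (0.0251) and Lhfpl2 (0.0355). Hnf4a lay closest to Eya3 (0.0152) and Atp9a (0.0167), and Osr2 to Tnfrsf11b (0.224) and Il33 (0.225). Gata5 lay closest to the leukocyte chemokine receptor Ccr1 (0.115) and the leukocyte integrin Itgb2 (0.290). Itgb2 had 9.23 and 8.63 CPM in KO, against 2.19 and 1.45 CPM in WT.

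Markers of other cells moved between the same libraries. Beside the counts of risen markers below, 8.83% of all tested genes rose. The 9 general epithelial markers summed to 16056 and 16635 CPM in KO, against 16462 and 16236 CPM in WT, so the labelled cell type was present in all 4. The 9 neutrophil markers summed to 442 and 431 CPM in KO, against 130.0 and 103 CPM in WT. Of 8 tested, 6 rose, and Camp was listed at 0 in all 4 libraries. Most of that sum was Ly6g, at 330 and 319 CPM in KO, against 116 and 93.3 CPM in WT (edgeR adjusted p = 0.00123). Some other neutrophil markers, picked out after their values were seen, differed more than the sum. S100a8, a subunit of calprotectin, had 44.1 and 43.4 CPM in KO, against 3.72 and 1.72 CPM in WT (edgeR adjusted p = 0.00246), 15.9-fold higher. S100a9, its partner subunit, had 43.3 and 42.6 CPM in KO, against 4.44 and 3.37 CPM in WT (edgeR adjusted p = 0.000434), 11.0-fold higher. Of the other risen markers, also named after their values were seen, Csf3r was 3.56-fold and Cxcr2 6.72-fold higher. Mmp8 was 80.5-fold higher, from near 0 CPM in WT, and Ly6g was 3.09-fold higher. The 9 fibroblast markers summed to 53.8 and 59.7 CPM in KO, against 29.0 and 29.3 CPM in WT, with 2 of 7 tested risen. Fbln1 led that sum, at 28.1 and 34.7 CPM in KO, against 9.73 and 10.3 CPM in WT. The other tested fibroblast markers, named after their values were seen, did not move together. Dcn passed (log2 fold change 0.79), and Col1a2 (1.19) and Pdgfra (2.24) were higher in KO without passing. Col1a1 (0.16) and Col3a1 (0.008) overlapped between the genotypes, and Col6a1 (-0.17) was lower in KO without passing. The 8 macrophage markers summed to 174 and 168 CPM in KO, against 172 and 192 CPM in WT, with 2 of 8 risen. Most of that sum was Cd14, at 136 and 134 CPM in KO, against 159 and 181 CPM in WT, which did not pass (edgeR adjusted p = 0.0550). The other 7 were higher in both KO libraries than in both WT libraries, and of these Lyz2 and Csf1r, named after their values were seen, passed. Lyz2, a lysozyme of myeloid cells, had 18.8 and 18.9 CPM in KO, against 5.57 and 3.76 CPM in WT (edgeR adjusted p = 0.00420). The 7 T cell markers summed to 9.78 and 11.2 CPM in KO, against 3.65 and 4.56 CPM in WT, with 1 of 7 risen. That was Cd4, named after its values were seen, with 24 and 28 counts in KO and 0 in both WT libraries. Its call (edgeR adjusted p = 0.0456) thus rests on values near 0 CPM. Smooth muscle, endothelial, B cell, and neuron and glia markers each summed to under 8 CPM in every library, and none of their tested members passed. The 7 squamous markers of the anal canal summed to 3.34 and 3.04 CPM in KO, against 1.55 and 1.61 CPM in WT, with 1 of 3 tested risen and Krt5, Krt4 and Sprr3 listed at 0. The part of any of these cells in the levels of Gata5, Gata4 or Osr2 was not tested.

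**Figure D5:**
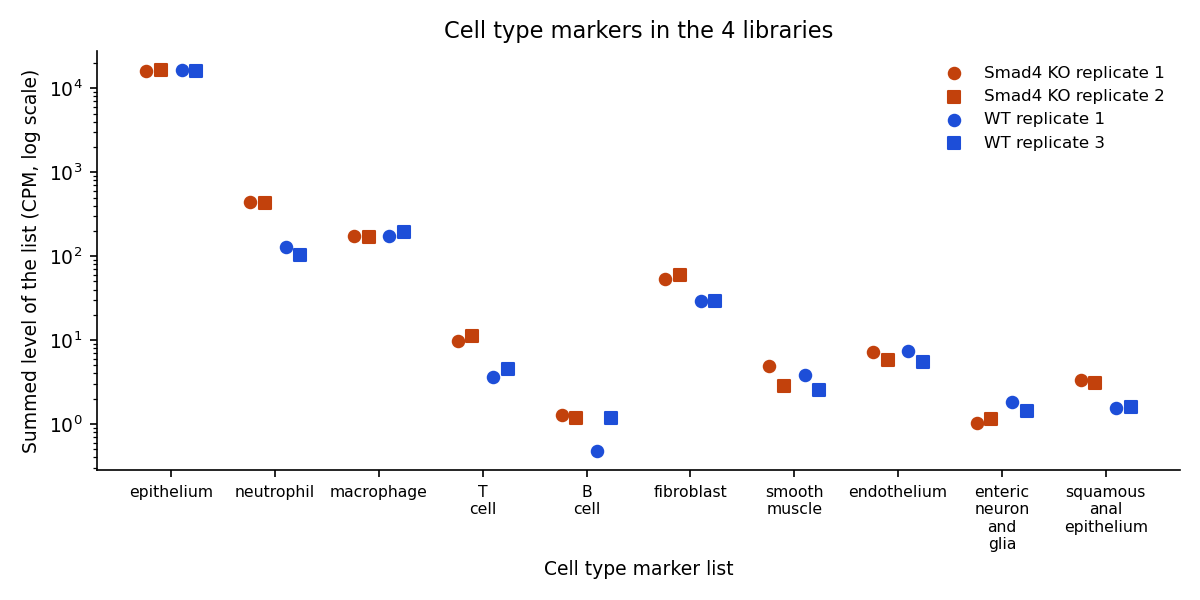
Summed CPM on a log axis of 10 cell type marker lists in the 4 libraries, with Smad4 KO (orange) left of WT (blue). Epithelial markers lie between 16056 and 16635 CPM in all 4 libraries, and neutrophil markers at 442 and 431 CPM in KO against 130.0 and 103 CPM in WT. Most of the neutrophil sum is Ly6g, and most of the macrophage sum is Cd14.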

How the data were processed

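Per the labels' protocols, TRIZOL extraction gave the RNA, and 1.5 µg went into each random-hexamer library. The authors deposited whole-number counts per gene, not normalized, with 31227 rows and 4 columns, each matched to a library by title, with 0 columns left over. GRCm38 (mm10), StringTie 1.3.3b, SAMtools 1.9, HISAT2 2.1.0 and FastQC 0.19.7 are named, with no roles, in the submitters' processing notes. The counting step, the annotation release and strand are not stated in those notes or the labels. In the deposited counts 454 to 521 genes per library had the value 4 and only 43 to 58 the value 1, so a count need not be 1 read and no counting intervals are given.

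GENCODE M21 (GRCm38) supplied symbols, positions and exon lengths and named 31207 rows. Any count was present for 19618 genes, and 15838 passed filterByExpr. The quasi-likelihood test of edgeR 4.0.16 in R 4.3.3, after TMM scaling, had genotype as its only term. The SE is the log2 fold change divided by the square root of F. The fit was tested on simulated data, where it recovered the size of known fold changes. In every run the share of false calls was above the nominal one, so calls near the threshold are less sure. The simulation changed fewer genes than passed here, as many up as down. Its share of false calls is thus not an estimate for these data. Alternatives used DESeq2 1.42.0 and limma 3.58.1, other scalings and filters, and each library left out in turn. Members, lists and tests were chosen with earlier results of these data known. The text names the 9 members, Smad4, up to 4 genes with the smallest p per list, the most abundant marker per cell type and 2 nearest genes per member past the threshold. Some markers were named after their values were seen, as the text says, and the leading markers of the lists with low sums are not given singly. Some listed factors are not reported here by name.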

Additional observations from a re-analysis of the deposited data

How the results depend on the processing

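The number of genes past the threshold was 2412, between 2389 and 3446 under the other scalings, filters and tests, and 975 to 2573 with a library left out. Of the 9 identity factors, 5 were past it, 4 to 6 under the other settings and 2 to 6 with a library left out. Osr2 and Isx were past it under all 12 alternatives. Left-out libraries gave 2 to 6 calls in the partner list (6 with all libraries), 1 to 2 in the regional list (1), 3 to 6 in the small intestine list (7), 3 to 5 in the ileal list (5) and 1 to 2 in the stomach list (2). The regional list had 2 calls without a filter on low counts and 2 by DESeq2. The cause was not tested, though a left-out library also leaves fewer samples. Among the low genes, the log2 fold change of Ms4a1 ran between -0.03126 and 1.299, Tff2 from -6.61 to 0.16, Muc6 from -2.33 to 0.17 and Meis2 from -0.005802 to 6.92 when a library was left out, and none of these 4 passed with all libraries in. The largest shift of the median of all genes was -0.05235 on the log2 scale, with library totals. No paired analysis was possible because the genotypes share only replicate number 1. Nothing in the groups of 2 libraries can be tested for an outlying sample.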

Other observations

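The row of Cldn2, the cation pore claudin of leaky epithelium, held 13976 and 1 counts in the KO libraries and 9789 and 1 counts in the WT libraries, so it was near 0 in 1 library of each genotype. Grhl2, an epithelial junction factor, had 63.3 and 22.6 CPM in KO, against 67.1 and 61.1 CPM in WT, with the gap inside the KO pair. The cause was not tested. Both genes were picked out after their values were seen. In each library the small values of the count table piled up at 4 (454 to 521 genes) and 8 (268 to 329 genes), against 83 to 107 genes at 7.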
